A study of Mus musculus with 4 samples.

Results

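The genes described here are 7 matrix metalloproteinases (Mmp2, Mmp3, Mmp9, Mmp11, Mmp12, Mmp13 and Mmp14) and 3 tissue inhibitors of metalloproteinases (Timp1, Timp2 and Timp3), followed in mammary tumors and mammary glands of mice with and without Sca-1. Members were taken by gene symbol, which gave 21 probe sets for the 10 genes, out of 22690 probe sets on the arrays. RNA came from female, nulliparous mice on a C57BL/6 background, and the wild types were age-matched littermates. There were 4 groups: Sca-1 KO tumor, WT tumor, Sca-1 KO gland and WT gland. The tumors were induced with a subcutaneous injection of 15 mg MP, a depot progestin, and then 4 weekly gavage doses of 1 mg DMBA, an aromatic hydrocarbon carcinogen. The labels of the glands name mice of 6 weeks and no carcinogen in their treatment field, although the treatment protocol is attached to all samples. The labels give no age for the tumor-bearing mice, and tissue, age and treatment cannot be told apart. All mice were kept on standard chow. Each group was 1 pool of equal RNA amounts from 5 mice, hybridised to a single array. The design has no replicates, so no error between mice and no test can be given. Sca-1 is a cell surface protein of the Ly6 family, found on many stem and progenitor cells. The annotation used named no probe set for its gene, and the knockout was therefore not checked by the array values.

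Matrix metalloproteinases, or MMPs, are zinc-dependent enzymes that are made as inactive proenzymes and cut collagens, proteoglycans and other proteins of the extracellular matrix once activated. TIMPs are small secreted proteins that sit in the catalytic cleft of active MMPs and block it. In the mammary gland both families take part in duct branching and in the remodelling of the gland after weaning, and in tumors much of their RNA is known to come from fibroblasts and macrophages rather than from the tumor epithelium.

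The genes Mmp13, Mmp12 and Mmp3 lie close together on chromosome 9, all had lower signals in the Sca-1 KO tumor than in the WT tumor, and all have a TGANTCA motif, the binding motif of AP-1 transcription factors, close before a transcription start. The motif was searched in RefSeq promoters of 300 bases (250 before to 50 after a start, GRCm38.p6), and it reads the same on both strands. Promoter entries were found for 8 of the 10 genes, 9 entries in all. Mmp2 and Mmp9 had none. The 3 promoters that held the motif are shown because they belong to genes that differed together between the tumors, with the motif in capitals, 5′ to 3′ on the plus strand. They are Mmp13 (chr9:7272264-7272563, motif from 35 bases before the start), Mmp12 (chr9:7347124-7347423, 44 bases) and Mmp3 (chr9:7445572-7445871, 46 bases).
Mmp13: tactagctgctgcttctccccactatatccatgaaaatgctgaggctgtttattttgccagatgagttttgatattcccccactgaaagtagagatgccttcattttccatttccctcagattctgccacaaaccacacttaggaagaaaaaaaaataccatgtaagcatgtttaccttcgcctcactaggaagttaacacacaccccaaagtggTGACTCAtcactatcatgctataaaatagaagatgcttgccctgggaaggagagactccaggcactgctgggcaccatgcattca
Mmp12: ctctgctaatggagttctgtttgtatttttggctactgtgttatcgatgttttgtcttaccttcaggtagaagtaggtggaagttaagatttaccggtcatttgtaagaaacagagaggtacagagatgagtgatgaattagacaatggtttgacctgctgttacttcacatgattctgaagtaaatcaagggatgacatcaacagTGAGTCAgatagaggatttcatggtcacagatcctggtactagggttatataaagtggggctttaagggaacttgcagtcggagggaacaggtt
Mmp3: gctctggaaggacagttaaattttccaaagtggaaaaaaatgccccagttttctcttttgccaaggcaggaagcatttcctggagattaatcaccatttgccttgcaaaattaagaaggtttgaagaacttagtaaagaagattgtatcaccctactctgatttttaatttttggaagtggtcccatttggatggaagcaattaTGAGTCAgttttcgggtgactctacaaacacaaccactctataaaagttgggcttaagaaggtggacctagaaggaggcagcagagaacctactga
Another promoter entry of Mmp12 and the entries of Mmp11, Mmp14, Timp1, Timp2 and Timp3 held no such letters. Of all 32851 promoters in the table, 7.81% held the motif and 0.597% had it starting 30 to 50 bases before the start, a window chosen after the positions above were seen. The motif was also found in promoters of 5 of the 13 other MMP genes with an entry, namely Mmp1a, Mmp1b, Mmp7, Mmp10 and Mmp20, all on chromosome 9. In those 5 it started from 63 to 95 bases before the start, outside the window of 30 to 50 bases. Those 5 genes were dim on every array, so the motif at any position was not particular to the genes that were bright in tumors. A match describes the sequence and is not evidence of binding.

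Values are linear signals of the probe set with the highest mean of each gene, and differences are between values of log2(signal + 27.3). The added 27.3, the lower quartile over the 4 arrays, makes changes of dim genes look smaller than they are. A gene was compared where at least 1 of its 4 signals reached 168, the median of all values, called the floor below. This left 8283 genes, 9 of the 10 members among them, and 18 of the 21 member probe sets. Mmp11, stromelysin-3, did not pass, with signals of 55.9 in the Sca-1 KO tumor, 49.5 in the WT tumor, 70.2 in the Sca-1 KO gland and 50.3 in the WT gland. Mmp9 passed through the Sca-1 KO gland alone, and Mmp12 and Mmp13 through the tumors alone. Only 5 members were at or above the floor on all 4 arrays. Array medians were 153 in the Sca-1 KO tumor, 151 in the WT tumor, 199 in the Sca-1 KO gland and 167 in the WT gland. As a gauge of measurement noise, the robust SD between the 2 brightest probe sets of a gene, over 2766 genes, was 0.18 for the genotype difference in tumor and 0.26 in gland. For tumor against gland it was 0.48 in Sca-1 KO and 0.51 in WT. This is an SD for 1 probe set: the gap between the 2 was divided by the square root of 2, so the gap itself varied more. Spread between mice or between pools is not part of this SD.

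The tissue labels were set against cell type markers. The luminal keratin Krt8 had signals between 4987 and 9811 on all 4 arrays, and the basal keratin Krt5 between 458 and 5245. Skeletal muscle and fat markers were bright in the glands, and Myh4, a fast myosin, had 44.0 in the Sca-1 KO tumor and 0.6 in the WT tumor, against 7172 in the Sca-1 KO gland and 7347 in the WT gland. Fewer cells of a type and less RNA per cell cannot be told apart in such bulk RNA.

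**Figure D1:**
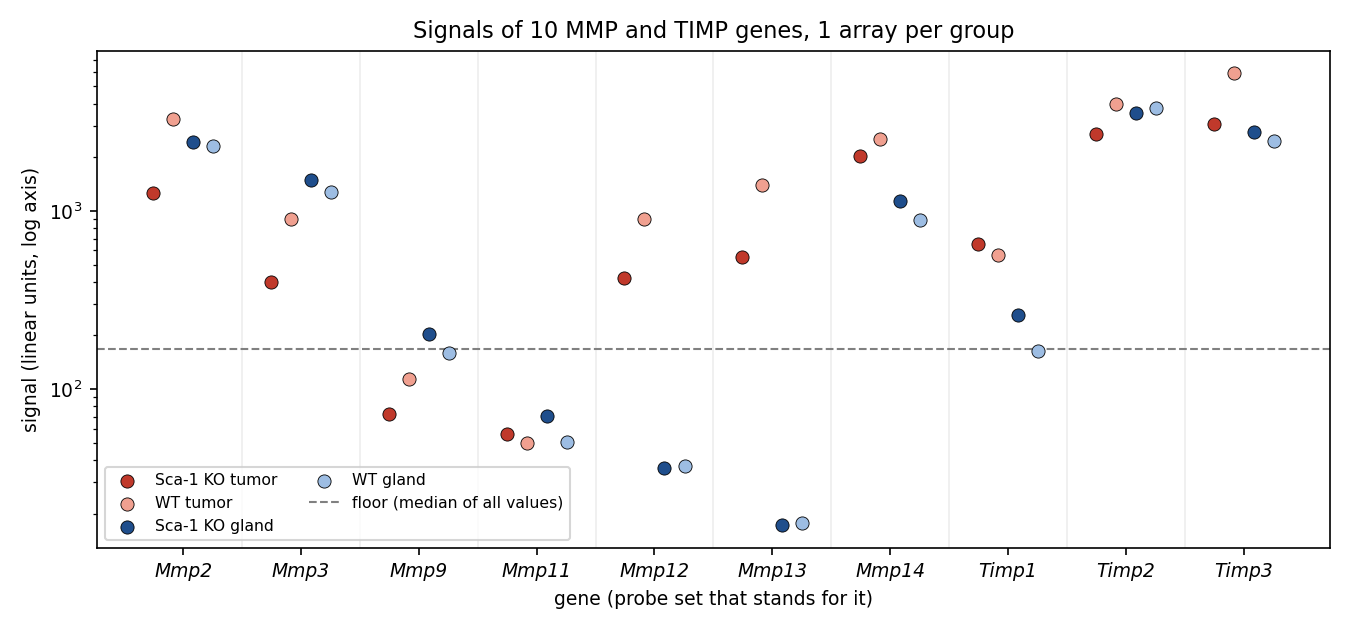
Signal of each of the 10 genes (x axis) on each of 4 arrays (y axis, linear signal units on a log axis), 1 point per array, with the floor of 168 as a dashed line. Mmp12 and Mmp13 lie above the floor in both tumors and far below it in both glands, and Mmp2, Mmp3, Mmp12, Mmp13 and Timp3 lie lower in the Sca-1 KO tumor than in the WT tumor.

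The first comparison was between tumors of the 2 genotypes. Of the 9 members compared, 4 were at least 2-fold lower in the Sca-1 KO tumor, namely Mmp2, Mmp13, Mmp3 and Mmp12. None was at least 2-fold higher, and 5 lay within 2-fold. Over all 8283 genes, 1.94% were at least 2-fold lower and 2.12% at least 2-fold higher. The median log2 difference of the 9 members was -0.94, beside 0.01 for all genes, and 8 of the 9 were negative while 51.8% of all genes were positive. Without a floor the median of the 10 members was -0.75.

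Mmp2, gelatinase A, cuts denatured collagen and basement membrane collagen and is made mainly by fibroblasts. Its signal was 1261 in the Sca-1 KO tumor and 3301 in the WT tumor, and 2436 in the Sca-1 KO gland and 2304 in the WT gland. The Sca-1 KO tumor was thus the lowest of the 4 arrays and the WT tumor the highest. The difference between the tumors was -1.37, or 2.58-fold lower in the Sca-1 KO tumor, the 77th lowest of all genes compared. A second probe set of the gene, with 1156 in the Sca-1 KO tumor and 3313 in the WT tumor, gave 2.82-fold lower.

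Mmp13, the main interstitial collagenase of rodents, had signals of 550 in the Sca-1 KO tumor and 1389 in the WT tumor, against 17.2 in the Sca-1 KO gland and 17.8 in the WT gland. Both tumors were bright and both glands at background. It was 2.45-fold lower in the Sca-1 KO tumor, a log2 difference of -1.29. Mmp12, the macrophage elastase, had the same order of levels, with 419 in the Sca-1 KO tumor and 904 in the WT tumor, and 36.0 and 37.2 in the Sca-1 KO and WT glands. It was 2.09-fold lower in the Sca-1 KO tumor.

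Mmp3, stromelysin-1, which cuts proteoglycans and can activate other proMMPs, had another profile. Its signal was 400.2 in the Sca-1 KO tumor, 906 in the WT tumor, 1496 in the Sca-1 KO gland and 1275 in the WT gland. Both glands were therefore above both tumors. The Sca-1 KO tumor was 2.18-fold below the WT tumor, a log2 difference of -1.13. The values nearest to the 2-fold line were those of Mmp12, at -1.06, and of Timp3, at -0.94. With the pooled median as offset, Mmp3 and Mmp12 were at -0.92 and -0.87, and 2 members were then at least 2-fold lower, Mmp2 and Mmp13.

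The other metalloproteinases differed less. Mmp14, a membrane-anchored MMP that activates the Mmp2 proenzyme, had 2021 in the Sca-1 KO tumor and 2531 in the WT tumor, a log2 difference of -0.32. Its dimmer probe set gave -0.11. Mmp9, gelatinase B, which neutrophils and macrophages release, had 72.3 in the Sca-1 KO tumor and 114 in the WT tumor, both below the floor, and a log2 difference of -0.50.

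The inhibitors differed among themselves. Timp3, the TIMP that stays bound to the matrix, had 3075 in the Sca-1 KO tumor and 5920 in the WT tumor, 1.92-fold lower in the Sca-1 KO tumor. Its 4 probe sets gave log2 differences from -1.07 to -0.91, so they differed little from each other, and 2 of them were past 2-fold. Timp2, which also joins Mmp2 and Mmp14 in the complex that activates Mmp2, had 2714 in the Sca-1 KO tumor and 4009 in the WT tumor, a log2 difference of -0.56. Its 5 probe sets above the floor were all lower. Timp1, the TIMP that is best known as induced by cytokines, was the exception among the 9 members, with 653 in the Sca-1 KO tumor and 563 in the WT tumor, a log2 difference of 0.20, only just above the spread between probe sets of 0.18. Over all member probe sets that reached the floor, 17 of 18 were lower in the Sca-1 KO tumor, and 7 of them at least 2-fold. Over all 12329 named probe sets above the floor, 47.8% were lower and 1.87% at least 2-fold lower. Probe sets of 1 gene measure the same RNA and are not replicates.

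**Figure D2:**
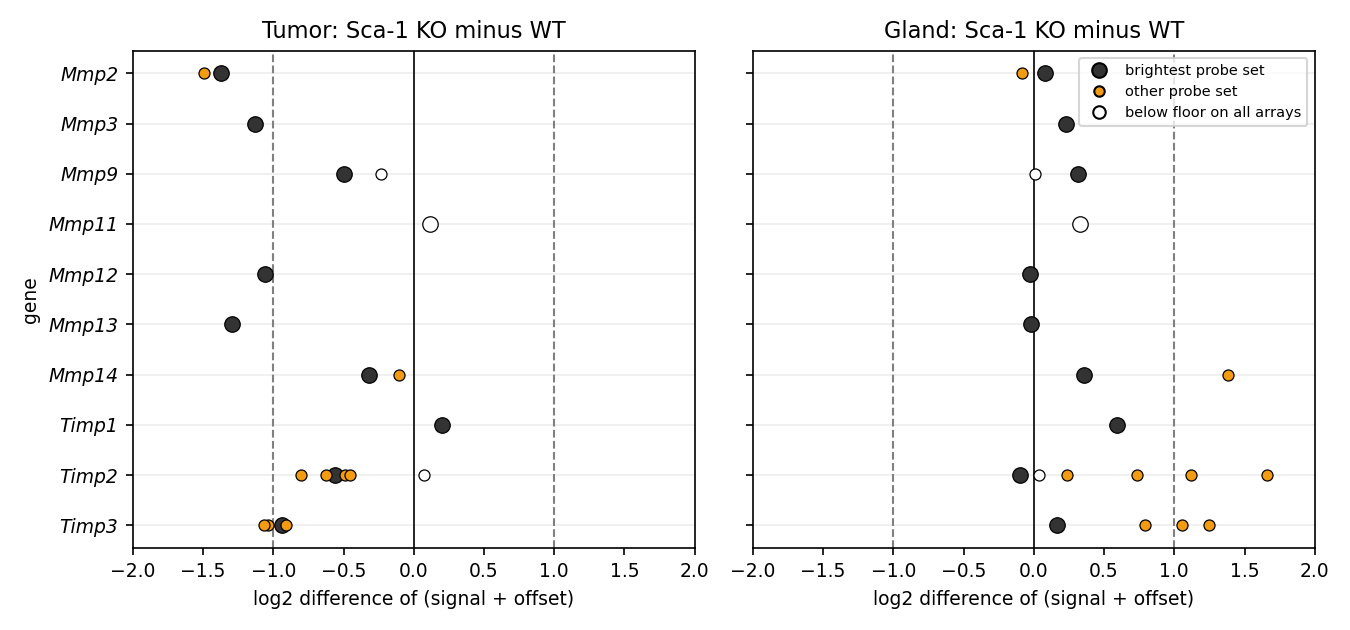
Log2 difference of (signal + 27.3), Sca-1 KO minus WT (x axis), for all 21 probe sets of the 10 genes (y axis), in tumor on the left and in gland on the right. Dark points are the brightest probe set of a gene, orange points its other probe sets, open points those below the floor on all arrays, and dashed lines mark 2-fold. In tumor the probe sets of Timp3 lie close together between -1.07 and -0.91, and in gland those of Timp2 spread from -0.10 to 1.66. The Timp2 point at 1.66 passed the floor through the Sca-1 KO gland alone.

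Markers of several cell types also differed between the tumors. All 10 macrophage markers were above the floor somewhere, none was past 2-fold, 1 was positive, and their summed signal was 24089 in the Sca-1 KO tumor and 30461 in the WT tumor. Defining macrophage markers were bright in both tumors, such as Csf1r, the receptor of a macrophage growth factor, with 3352 in the Sca-1 KO tumor and 5284 in the WT tumor. The 11 fibroblast markers summed to 26452 in the Sca-1 KO tumor and 31010 in the WT tumor, with 2 of them at least 2-fold lower, Col1a1 and Lum, and 1 higher, Postn. The 4 neutrophil markers above the floor were split, with S100a8 and S100a9 at least 2-fold lower in the Sca-1 KO tumor and Ltf and Ngp at 0.14 and 0.07. Ngp passed the floor through the Sca-1 KO gland alone. It had 13.8 in the Sca-1 KO tumor and 11.8 in the WT tumor, so its 0.07 compares background values. S100a8 had 239 in the Sca-1 KO tumor and 741 in the WT tumor, and Ltf had 3261 in the Sca-1 KO tumor and 2962 in the WT tumor. The neutrophil marker Mpo was below the floor on all arrays. Squamous epithelium markers differed most, with a summed signal of 1370 in the Sca-1 KO tumor and 8120 in the WT tumor over 8 genes, of which 7 were at least 2-fold lower. All 8 reached the floor in the WT tumor and 2 in the Sca-1 KO tumor. Krt1, Krt6b, Lor, Sprr1b, Krtdap and Stfa3 passed it through the WT tumor alone, so the filter favoured their direction. None of the markers was at 0 on any array. The part of these cell types in the differences of the MMP and TIMP genes was not tested.

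**Figure D3:**
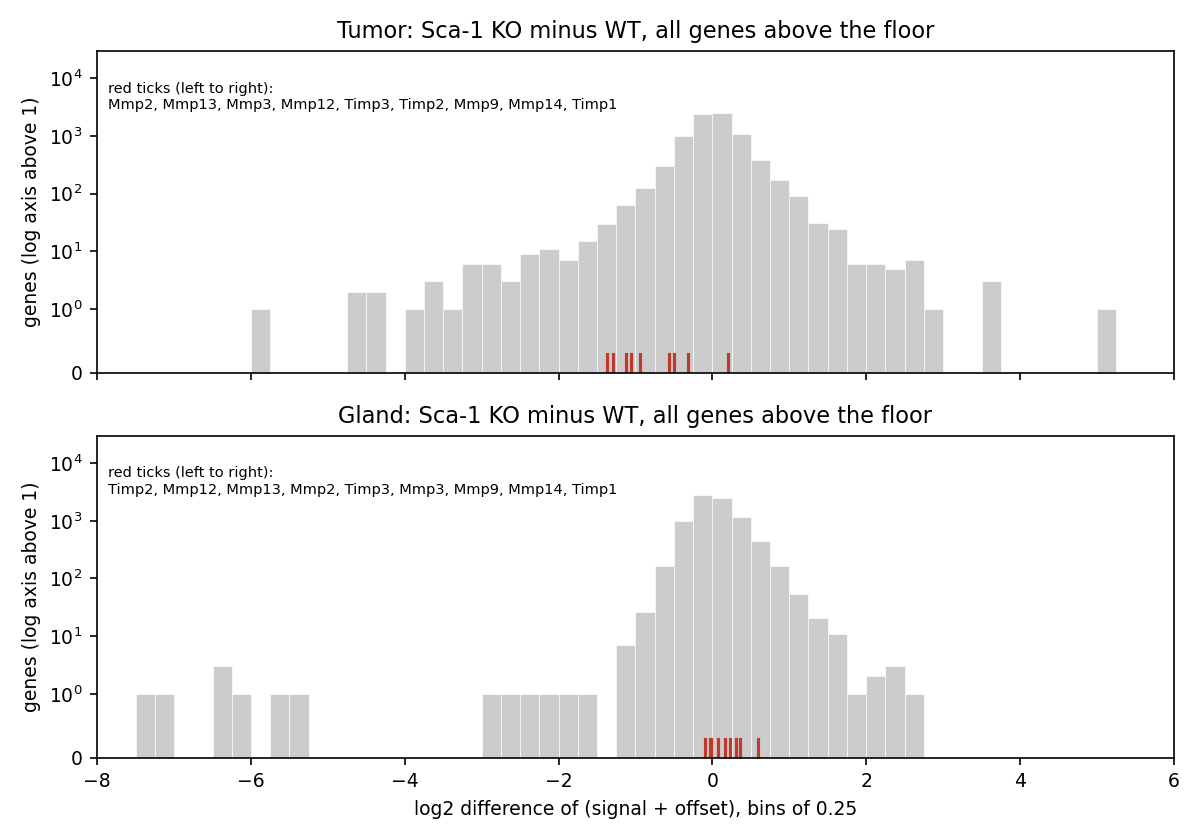
Number of genes (y axis, log axis above 1) by log2 difference Sca-1 KO minus WT (x axis, bins of 0.25) over the 8283 genes compared, in tumor above and in gland below. Red ticks mark the 9 MMP and TIMP genes, which run from -1.37 to 0.20 in tumor and from -0.10 to 0.59 in gland.

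By their brightest probe sets, none of the 9 members was at least 2-fold higher or lower in the Sca-1 KO gland than in the WT gland, and over all genes 1.11% were higher and 0.254% lower. The median log2 difference of the members was 0.17, beside 0.01 for all genes, with 6 of 9 positive where 52.2% of all genes were. When arrays were brought to a common median, the member median was -0.090 and that of all genes -0.23, and the numbers of all genes higher and lower were 43 and 37 in place of 92 and 21. With quantile normalization they were 66 and 34. Timp1 had the largest member difference, 0.59, with 259 in the Sca-1 KO gland and 163 in the WT gland. Mmp14 followed at 0.36, with 1143 in the Sca-1 KO gland and 885 in the WT gland, and Mmp9 at 0.31, with 205 in the Sca-1 KO gland and 160 in the WT gland. Mmp9 passed the floor through the Sca-1 KO gland alone, so the filter favoured its direction. Mmp12 and Mmp13 were below the floor in both glands, so their differences of -0.03 and -0.02 compare background values. The differences of Mmp2 (0.08), Mmp3 (0.23) and Timp3 (0.17) turned negative with a common median, and that of Timp2 (-0.10) turned positive with quantile normalization. With the mean over all probe sets of a gene, Mmp2 was negative and Timp2 positive. Markers of leukocytes differed more between the glands. All 4 B cell markers measured were at least 2-fold higher in the Sca-1 KO gland, with a summed signal of 4996 there and 1873 in the WT gland. Of 4 neutrophil markers above the floor 3 were at least 2-fold higher, S100a8, S100a9 and Ngp, while Ltf was at -0.40. All 10 macrophage markers were positive, with a summed signal of 18736 in the Sca-1 KO gland and 13589 in the WT gland, but only 1, Marco, was past 2-fold. Ngp and Marco passed the floor through the Sca-1 KO gland alone, so the filter favoured their direction. The part of these leukocytes in the gland differences of the MMP and TIMP genes was not tested.

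Probe sets of Timp2, Timp3 and Mmp14 disagreed in the gland more than in the tumor, while those of Mmp2 and Mmp9 lay about as close together in both. For Timp3 the brightest probe set gave 0.17, with 2765 in the Sca-1 KO gland and 2460 in the WT gland. Another gave 1.25, with 270 in the Sca-1 KO gland and 97.8 in the WT gland. All 4 Timp3 probe sets were higher in the Sca-1 KO gland. For Timp2 the 6 probe sets ran from -0.10 to 1.66, and for Mmp14 the 2 gave 0.36 and 1.38. In all, 5 of the 18 member probe sets above the floor were at least 2-fold higher in the Sca-1 KO gland, against 1.89% of all 12329 named probe sets above the floor. They were 1 of Mmp14, 2 of Timp2 and 2 of Timp3, and none was the brightest of its gene. The Timp2 probe set at 1.66 had 257 in the Sca-1 KO gland and 62.5 in the WT gland. It passed the floor through the Sca-1 KO gland alone, so the filter favoured its direction. A sign of RNA integrity, the signal at the 3′ end of beta-actin over that at its 5′ end, was 1.61 in the Sca-1 KO gland and 2.35 in the WT gland, against 1.29 in the Sca-1 KO tumor and 1.23 in the WT tumor. Its part in the disagreement was not tested.

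The difference between the genotype differences (tumor minus gland) was negative for all 9 members, from -1.45 for Mmp2 to -0.39 for Timp1, with a median of -1.04 beside 0.00 for all genes. Over all genes 50.3% were positive. Mmp9 passed the floor through the Sca-1 KO gland alone, so the filter favoured its negative sign. None of the 9 members reached 4-fold by its brightest probe set, as 1.05% of all genes did. Of the other probe sets, 1 of Timp2 (-2.15) and 2 of Timp3 (-2.09 and -2.31) did, against 1.04% of all probe sets above the floor. That Timp2 probe set passed the floor through the Sca-1 KO gland alone, so the filter favoured its negative sign. The difference between the genotype differences was negative also for 9 of 10 macrophage markers, 10 of 11 fibroblast markers and 8 of 8 squamous markers. The same held for 4 of 4 B cell, 4 of 5 endothelial, 3 of 4 neutrophil and 2 of 3 fat markers. It was negative for 3 of 7 basal markers, 0 of 5 luminal and 0 of 5 skeletal muscle markers. The filter favoured this sign for most squamous markers, which passed the floor through the WT tumor alone. It did so too for the macrophage marker Marco and the neutrophil marker Ngp, which passed through the Sca-1 KO gland alone.

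Tumor was then set against gland within each genotype. These comparisons share arrays with those above, so they are given as values side by side. In Sca-1 KO mice 3 members were at least 2-fold higher in tumor, Mmp13, Mmp12 and Timp1, and 2 were at least 2-fold lower, Mmp3 and Mmp9, where 12.4% of all genes were higher and 17.9% lower. Since Mmp12 and Mmp13 passed the floor through the tumors alone, and Mmp9 through the Sca-1 KO gland alone, the filter favoured their directions. In WT mice 5 were at least 2-fold higher, Mmp13, Mmp12, Timp1, Mmp14 and Timp3, and none was at least 2-fold lower, where 12.9% of all genes were higher and 16.6% lower. With a common median the numbers of all genes higher and lower in Sca-1 KO mice were 1753 and 1013 in place of 1023 and 1479, and the median of all genes was 0.34 in place of -0.04. In WT mice that median was 0.12 in place of -0.03.

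Mmp13 had the largest tumor against gland difference of the members in both genotypes, 3.70 in Sca-1 KO mice and 4.97 in WT mice. Mmp12 was at 2.82 in Sca-1 KO mice and 3.85 in WT mice. Since the gland signals were at background, the sizes depend on the offset, and over the settings tried Mmp13 ranged from 1.96 to 4.92 in Sca-1 KO mice and from 3.07 to 6.21 in WT mice. Mmp3 was at -1.83 in Sca-1 KO mice and -0.48 in WT mice. Mmp9 was at -1.22 in Sca-1 KO mice and -0.41 in WT mice, and its second probe set, at -0.32 and -0.08, was below the floor throughout.

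Mmp2 was at -0.93 in Sca-1 KO mice and 0.51 in WT mice, the only one of the MMPs whose brightest probe set differed in sign between the genotypes. Timp2, at -0.38 in Sca-1 KO mice and 0.08 in WT mice, did so too, but its WT value was negative with quantile normalization. Timp1 was 2.38-fold higher in tumor in Sca-1 KO mice and 3.10-fold in WT mice. Timp3 was at 0.15 in Sca-1 KO mice and 1.26 in WT mice by its brightest probe set, and its 4 probe sets spread from -0.63 to 1.70 in Sca-1 KO mice and from 1.26 to 4.02 in WT mice. Mmp14 was at 0.81 in Sca-1 KO mice and 1.49 in WT mice.

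**Figure D4:**
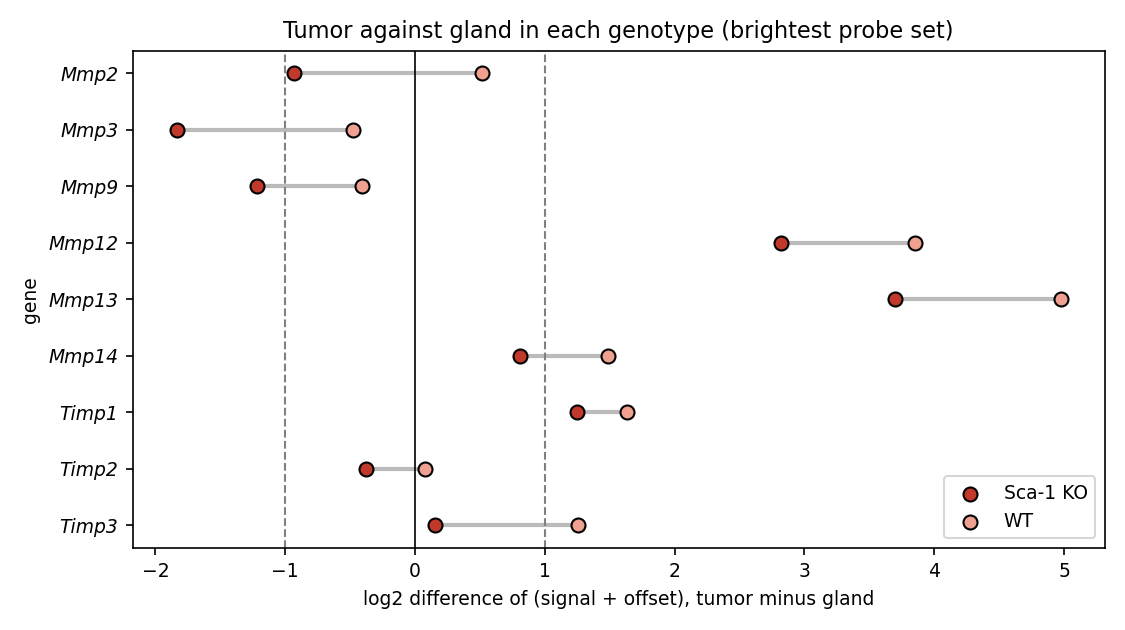
Log2 difference of (signal + 27.3), tumor minus gland (x axis), for the 9 genes compared (y axis), in Sca-1 KO mice (dark red) and WT mice (light red), with dashed lines at 2-fold. The Sca-1 KO point lies left of the WT point for all 9 genes, and Mmp12 and Mmp13 lie far to the right in both genotypes. Mmp9 passed the floor through the Sca-1 KO gland alone, and Mmp12 and Mmp13 through the tumors alone.

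Further genes of the pathway were read from lists. Of 16 other MMP genes 11 had a named probe set, and 9 of these were below the floor on all arrays. These included all 6 on chromosome 9, whose highest signal on any array was 59.6, that of Mmp8, the neutrophil collagenase, in the Sca-1 KO gland. Mmp10, stromelysin-2, which lies near Mmp3, had 31.4 in the Sca-1 KO tumor and 46.9 in the WT tumor. Mmp19 passed the floor through the Sca-1 KO gland alone, and had 32.5 in the Sca-1 KO tumor and 122 in the WT tumor, both below the floor. Mmp23 had 120 in the Sca-1 KO tumor and 84.4 in the WT tumor. Among other inhibitors, Timp4, the TIMP of fat and heart, had 25.3 in the Sca-1 KO tumor and 32.4 in the WT tumor, against 794 in the Sca-1 KO gland and 1215 in the WT gland. Reck, a membrane-anchored MMP inhibitor, had 199 in the Sca-1 KO tumor and 330 in the WT tumor, a log2 difference of -0.66.

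Of 12 ADAM and ADAMTS genes compared, relatives of the MMPs that shed cell surface proteins or cut proteoglycans, none differed 2-fold between the tumors or between the glands, and their tumor median was 0.02. The nearest to 2-fold was Adam12, at -0.94. Of 6 genes that activate proMMPs or belong to the plasminogen system, 2 were at least 2-fold higher in the Sca-1 KO tumor and none was lower. Plau, the urokinase that makes plasmin, had 246 in the Sca-1 KO tumor and 73.1 in the WT tumor, a log2 difference of 1.45, and passed the floor through the Sca-1 KO tumor alone. Pcsk6, a proprotein convertase, had 152 in the Sca-1 KO tumor and 57.9 in the WT tumor, both below the floor. Furin, the convertase that cuts the Mmp14 and Mmp11 proenzymes, was at 0.59. The urokinase receptor Plaur went the other way, at -0.78.

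Of 9 inducers of MMP transcription compared, none differed 2-fold between the tumors, with a median of 0.20. The AP-1 subunit Fos had 1867 in the Sca-1 KO tumor and 1066 in the WT tumor, a log2 difference of 0.79. Its partner Jun had 1668 in the Sca-1 KO tumor and 1803 in the WT tumor, and Junb and Jund differed by 0.13 and -0.05. Fosl1, Fosl2 and Fosb were below the floor on all arrays. The factor Ets1 was at 0.91. The cytokine Il1b, an inducer of Mmp3 and Mmp13 in fibroblasts, had 409 in the Sca-1 KO tumor and 347 in the WT tumor, against 87.0 in the Sca-1 KO gland and 47.5 in the WT gland.

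Among binding partners, Lrp1, the endocytic receptor that clears MMPs and their inhibitor complexes, was 2.05-fold lower in the Sca-1 KO tumor, with 394 there and 836 in the WT tumor. Lcn2, a lipocalin in the same list, had 9424 in the Sca-1 KO tumor and 10169 in the WT tumor. The hyaluronan receptor Cd44, a docking site for Mmp9, had 3671 in the Sca-1 KO tumor and 3733 in the WT tumor. Of 11 substrates compared, 2 were at least 2-fold lower in the Sca-1 KO tumor and 2 at least 2-fold higher. Eln, the elastic fibre protein that Mmp12 cuts, had 177 in the Sca-1 KO tumor and 777 in the WT tumor. Col1a1, a chain of the collagen that Mmp13 cuts, had 349 in the Sca-1 KO tumor and 817 in the WT tumor. Fn1, fibronectin, had 2738 in the Sca-1 KO tumor and 889 in the WT tumor, and Tnc, tenascin, 1275 in the Sca-1 KO tumor and 374 in the WT tumor.

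**Figure D5:**
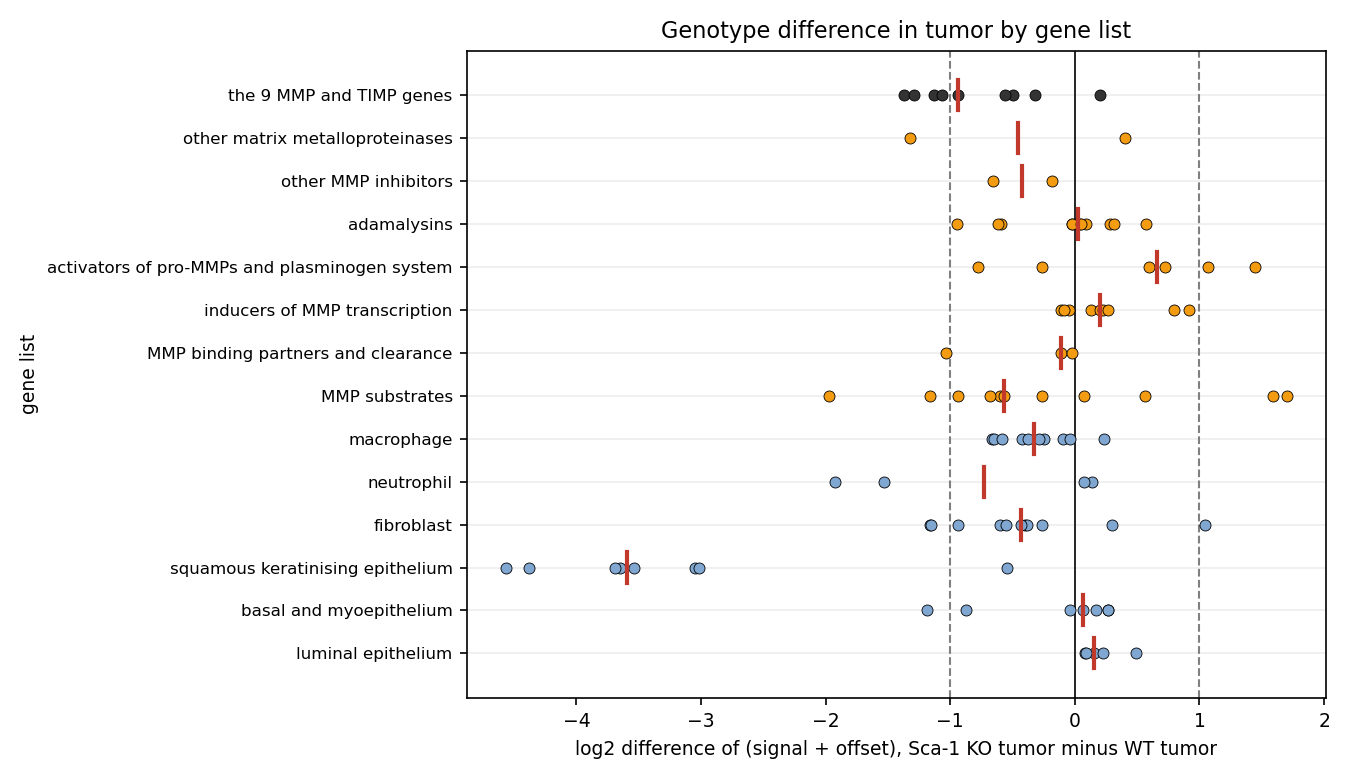
Log2 difference of (signal + 27.3), Sca-1 KO tumor minus WT tumor (x axis), by gene list (y axis), 1 point per gene above the floor, with the list median as a red bar and dashed lines at 2-fold. The 9 MMP and TIMP genes have their median at -0.94, the ADAM and ADAMTS genes at 0.02, the macrophage markers at -0.33, the fibroblast markers at -0.43 and the squamous markers at -3.59. Most of the squamous markers passed the floor through the WT tumor alone.

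Genes with profiles most like those of the members were found by the Euclidean distance between the 4 log2 values of each gene after its own mean was subtracted, over the 4 arrays and 8282 other genes. The nearest to Mmp13 were Mia (distance 0.43), Chil1, a chitinase-like secreted protein (0.46), and Il17b (0.47). Chil1 had 4097 in the Sca-1 KO tumor and 8042 in the WT tumor, against 292 in the Sca-1 KO gland and 377 in the WT gland. The nearest to Mmp12 was Saa2, an acute-phase serum amyloid (0.21), with 306 in the Sca-1 KO tumor and 623 in the WT tumor. The nearest to Mmp3 were the phagocytic receptor Mertk, the collagen chain gene Col6a1 (each 0.18) and Itpkb (0.19). The nearest to Mmp2 were Rps4l (0.17), the secreted serine protease Htra1 (0.21) and Mylip (0.23). With 4 arrays such likeness describes these values only.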

How the data were processed

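RNA of mammary tissue pools was labelled with biotin and hybridised to mouse Affymetrix arrays, per the labels' protocols. The authors deposited intensity values, a linear signal for every probe set. Their software and settings were not given in the labels. All 4 arrays had a mean of 500 once the lowest and highest 2% of values were dropped, which shows a scaling to that value.

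Symbols were taken from GEO's platform annotation and brought up to date through gene identifiers. Of 22690 probe sets 20393 had 1 symbol (20364 matched by identifier), 691 had several and were not used, and 1606 were not listed. Where a gene had several probe sets, the one with the highest mean of log2(signal + 27.3) was used. Differences were computed across all genes with Python 3.11.15, numpy 2.4.6 and pandas 2.3.3. The procedure was also run on simulated data, which does not show how sure the 2-fold counts of these arrays are. No test was possible, since 1 array per group sets the precision. The members and gene lists were chosen with earlier results of these data known. From the pathway lists, genes above the floor were named if at least 2-fold different between genotypes. Listed genes below the floor were not all named, also where they were past 2-fold. Other genes were list or marker examples, some chosen after their values were seen, or had profiles like that of a member. Alternatives were other offsets, scalings, probe set choices and floors.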

Additional observations from a re-analysis of the deposited data

Results flagged for a closer look

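Mmp9 and Mmp14 were the members whose genotype difference had opposite signs in the 2 tissues, with each difference of the brightest probe set larger than the spread between probe sets (0.18 in tumor and 0.26 in gland, log2). For Mmp9 the difference in tumor minus that in gland was -0.81, with a value of -0.50 in tumor and 0.31 in gland. For Mmp14 it was -0.68, with -0.32 in tumor and 0.36 in gland. With 1 array per group these differences between tissues were not tested. Mmp9 was below the floor on both tumor arrays. It passed the floor through the Sca-1 KO gland alone, so the filter favoured its sign in gland and in the difference between tissues. The gland values were within that spread with arrays brought to a common median, at 0.086 for Mmp9 and 0.11 for Mmp14. For Mmp9 they were so too with the pooled median as offset (0.19) and with quantile normalization (0.10). The other probe set of Mmp9 gave 0.0068 in gland, and that of Mmp14 gave -0.11 in tumor, both within the spread.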

How the results depend on the processing

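Under the 8 alternatives tried, none of the 14 member differences past 2-fold changed sign wherever it was computed. Mmp9, 1 of the 14, was not compared with the mean over all probe sets, where it did not reach the floor. Of all 36 member differences, 5 changed sign under at least 1 setting, 4 of them between the glands. For the tumors, the count of members at least 2-fold lower was 2 in place of 4 with the pooled median as offset, and the member median was -0.75 in place of -0.94 without a floor, which adds the dim Mmp11. For the glands, the member median was -0.090 in place of 0.17 with arrays brought to a common median. For tumor against gland in Sca-1 KO mice, the count of members at least 2-fold lower was 1 in place of 2 with the pooled median as offset, with a common median, and with the mean over all probe sets of a gene, where Mmp9 was not among the 8 members compared. The count at least 2-fold higher was 2 in place of 3 with the pooled median as offset, where Timp1 was at 0.94, and 4 with a common median, where Mmp14 was at 1.18. The median difference of the genotype differences was -0.82 in place of -1.04 with quantile normalization. A value was counted as moved where it shifted by more than the spread between probe sets, in place of a replicate SD. No paired analysis was possible because each group was 1 array. The raw scans were not used here, so background correction was not varied. Mmp11 was below the floor on all arrays and Mmp9 on 3 of 4, so signal over background limits what their differences show.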
